A study of Mus musculus with 64 samples.

Results

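PWK/PhJ is an inbred mouse strain derived from wild mice of the Mus musculus musculus lineage, and it is among the founder strains of the Collaborative Cross and Diversity Outbred populations. Its hippocampus was compared by bulk RNA sequencing with that of the 7 other founder strains. The PWK/PhJ group was taken by the strain label and held 8 of the 64 libraries, from 4 females and 4 males. The other 56 libraries came from C57BL/6J, 129S1/SvImJ, NOD/ShiLtJ, A/J and NZO/HlLtJ, which are classical laboratory strains, and from CAST/EiJ and WSB/EiJ, which are wild-derived. Each of these strains had 4 female and 4 male libraries, and each was given the same weight. The labels name strain, sex and tissue and give no age, treatment or engineered allele. The strain is written PWK/PhJ where the labels have PWK_PhJ, and the other names likewise. The labels do not say that libraries of a group came from separate animals, so the p-values measure the spread between libraries, which may be technical.

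The hippocampus is the brain region in which the granule neurons of the dentate gyrus and the pyramidal neurons of the CA fields support spatial and episodic memory. Inbred strains of separate subspecies differ at many regulatory and coding variants, and gene families with recent copies often differ between them in copy number or in which copy is transcribed. When reads from such strains are assigned to the genes of a single reference genome, a read can also move to a close copy. Whether the reads of each strain were aligned to the C57BL/6J reference or to a genome of that strain is not given in the sources used here. Levels of genes with close copies are therefore reported as uncertain. Whether differences from the reference sequence lowered the counts of other genes in PWK/PhJ was not tested.

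The 8 PWK/PhJ libraries held 16607602 to 25930306 counts, and the 56 others held 18981914 to 27759221. Levels are given as CPM, counts scaled to the TMM-adjusted library size. All 8 PWK/PhJ libraries had another PWK/PhJ library as their nearest neighbour, and no 2 of them agreed within sampling noise. Xist and the Y genes Ddx3y, Uty, Kdm5d and Eif2s3y matched the sex label in all 8. The tissue label was met by Prox1, a transcription factor of dentate granule neurons, at 78.6 to 101 CPM in PWK/PhJ and 58.9 to 130 CPM in the other strains. Wfs1, a marker of CA1 pyramidal neurons, was at 257 to 329 CPM in PWK/PhJ and 87.6 to 622 CPM in the other strains. In PWK/PhJ, female 2 and male 4 stood apart by choroid plexus transcripts, with summed marker levels of 1907 and 1066 CPM, against 24.0 to 201 CPM in the other 6 PWK/PhJ libraries.

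Sequences are shown first for gene pairs whose members moved in opposite directions in PWK/PhJ. Similar coding sequences limit how far a read from the coding part can tell the members apart. They are the C57BL/6J reference sequences of GENCODE release M21 and not those of PWK/PhJ. Capitals mark the bases that differ between the members of a pair, and pairs without a difference have none. Nutf2 on chromosome 8, which encodes the carrier of Ran-GDP into the nucleus, and Nutf2-ps1 on chromosome 19 had the same 384 coding bases without a difference. Pam16 on chromosome 16, a subunit of the motor that imports proteins into mitochondria, and Gm9803 on chromosome 10 also had identical coding sequences, of 378 bases. Isca1, which assembles iron-sulfur clusters in mitochondria, and AK157302, both on chromosome 13, differed at 2 of 390 coding bases. Hba-a1 and Hba-a2, the adult alpha-globin genes on chromosome 11, differed at 1 of 429 coding bases. Lefty2 and Lefty1 on chromosome 1, secreted inhibitors of Nodal signalling, differed at 90 of 1107 coding bases, and 18.4% of the 31-base stretches of Lefty2 also occur in another gene. Coding sequence is only a part of a transcript. Over whole transcripts, the shared 31-base stretches recorded for a pair were 39.6% for Nutf2 and Nutf2-ps1 and 20.8% for Pam16 and Gm9803. They were 13.4% for AK157302 and Isca1, 92.6% for Hba-a1 and Hba-a2 and 25.7% for Lefty2 and Lefty1.
Nutf2, coding bases 1 to 90: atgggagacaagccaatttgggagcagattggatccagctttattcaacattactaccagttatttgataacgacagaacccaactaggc
Nutf2-ps1, coding bases 1 to 90: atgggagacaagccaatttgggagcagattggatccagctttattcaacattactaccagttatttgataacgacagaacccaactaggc
Pam16, coding bases 1 to 90: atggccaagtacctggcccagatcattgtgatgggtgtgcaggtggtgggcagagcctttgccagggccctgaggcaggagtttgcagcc
Gm9803, coding bases 1 to 90: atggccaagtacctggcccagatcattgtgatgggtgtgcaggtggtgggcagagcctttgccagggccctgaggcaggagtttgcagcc
AK157302, coding bases 1 to 90: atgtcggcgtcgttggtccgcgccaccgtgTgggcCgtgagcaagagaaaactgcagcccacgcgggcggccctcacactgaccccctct
Isca1, coding bases 1 to 90: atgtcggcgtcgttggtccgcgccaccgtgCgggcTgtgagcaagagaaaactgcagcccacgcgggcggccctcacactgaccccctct
Hba-a1, coding bases 292 to 381: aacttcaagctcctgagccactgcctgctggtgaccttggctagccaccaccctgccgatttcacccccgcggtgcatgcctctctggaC
Hba-a2, coding bases 292 to 381: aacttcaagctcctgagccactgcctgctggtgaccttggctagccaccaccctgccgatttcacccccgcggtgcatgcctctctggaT
Lefty2, coding bases 35 to 124: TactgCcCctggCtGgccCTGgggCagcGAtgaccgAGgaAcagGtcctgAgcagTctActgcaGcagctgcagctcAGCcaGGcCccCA
Lefty1, coding bases 35 to 124: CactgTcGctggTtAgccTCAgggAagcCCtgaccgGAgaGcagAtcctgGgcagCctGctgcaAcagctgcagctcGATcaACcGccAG

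Against the mean of the 7 other strains, PWK/PhJ had lower levels of more genes than it had higher levels of. Lefty2, the peptidase inhibitor Slpi, the neuropeptide receptor gene Calcrl, the Toll-like receptor chaperone gene Unc93b1 and the interferon-inducible Ifit2 were among those higher, and the lipid transfer gene Mttp, the tryptophan dioxygenase gene Tdo2, the lysozyme gene Lyz2 and the interferon-inducible Irgm1 and Ifi27 were among those lower. Lefty2 and Lyz2 share sequence with a close copy, so their levels are uncertain. Of 17382 genes tested, 652 (3.75%) were higher and 973 (5.6%) were lower in PWK/PhJ, with an edgeR adjusted p under 0.05 and a change of at least 2-fold (1625 or 9.35% in either direction). The balance rested on the low-count filter and on the fold minimum: 1586 genes were higher and 1328 lower without the filter, and 5029 were higher and 5001 lower without the fold minimum. A mean can be carried by a single strain, so genes were also required to differ in the same direction from each of the 7 strains, by at least 2-fold each time. By this rule 157 genes (0.903%) were higher and 235 (1.35%) lower in PWK/PhJ than in every other strain, which is 24.1% of the genes called higher against the mean and 24.2% of those called lower (392 or 2.26% in either direction). All 8 PWK/PhJ libraries lay above all 56 others for 364 genes (2.09%), and below them for 286 genes (1.65%). A gene can pass the low-count filter through the PWK/PhJ libraries alone. Its call and its lack of overlap are then largely set by the filter. Of the genes higher than in every other strain, 110 had a mean under 1 CPM over all libraries, and of those lower, 104. How many genes passed only through PWK/PhJ was not counted. Without female 2 and male 4, which were left out after the data were seen, 157 genes were higher and 252 lower than in every other strain.

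**Figure D1:**
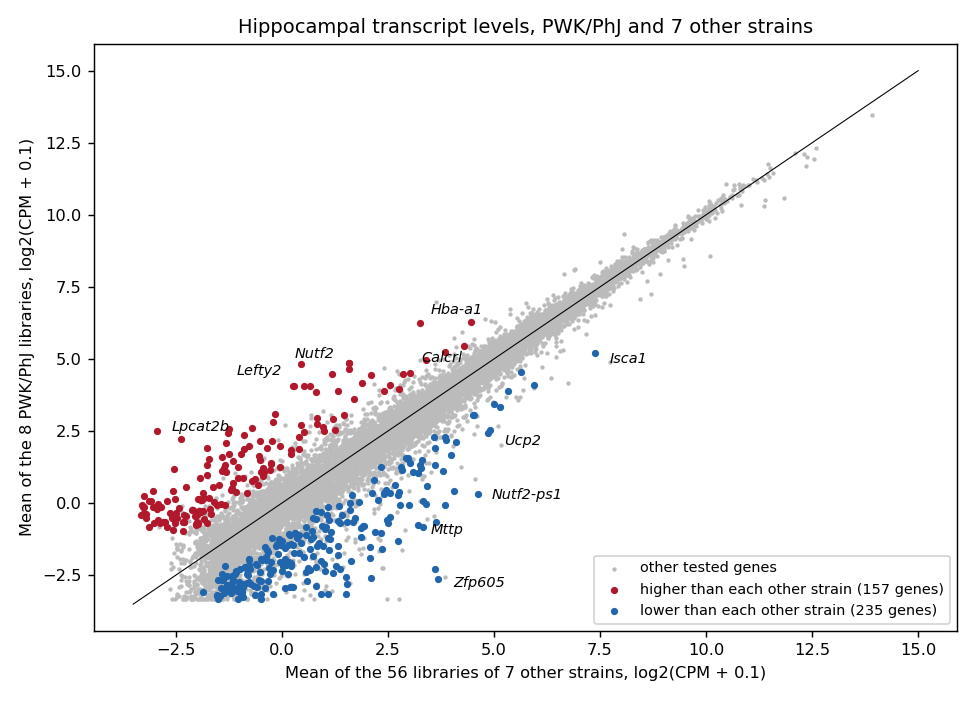
Mean level of each of 17382 genes in the 8 PWK/PhJ libraries (vertical axis, log2 of CPM plus 0.1) against the 56 libraries of 7 other strains (horizontal axis, same scale). The diagonal marks equal levels; the 157 genes higher in PWK/PhJ than in every other strain (red) and the 235 lower (blue) lie mostly at low to moderate levels.

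Against single strains, PWK/PhJ differed by a similar number of genes each time. It had 777 genes higher (4.47%) and 1160 lower (6.67%) against C57BL/6J, 775 (4.46%) and 1115 (6.41%) against 129S1/SvImJ, and 662 (3.81%) and 1338 (7.7%) against NOD/ShiLtJ. The counts were 764 higher (4.4%) and 1199 lower (6.9%) against A/J, and 647 (3.72%) and 1378 (7.93%) against NZO/HlLtJ. Among the wild-derived strains, they were 947 (5.45%) and 1053 (6.06%) against CAST/EiJ and 814 (4.68%) and 1188 (6.83%) against WSB/EiJ. These 7 comparisons share the PWK/PhJ libraries. CAST/EiJ limited the genes apart from every strain the most. With CAST/EiJ left out, PWK/PhJ stood apart by 241 higher and 452 lower genes, while leaving out any other single strain gave 165 to 174 higher and 249 to 285 lower.

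Lefty2, the secreted inhibitor of Nodal signalling, was among the genes higher in PWK/PhJ than in every other strain. It was at 14.7, 16.8 and 18.9 CPM (lowest, median and highest library) in PWK/PhJ, against 0, 1.20 and 2.38 CPM in the other strains. The groups did not overlap, and even in CAST/EiJ, the nearest strain, the mean was 1.72 CPM. On the log2 scale Lefty2 was 4.22 higher than the mean of the 7 strains (SE 0.10, edgeR adjusted p = 2.18e-41) and at least 3.27 higher than each of them. The level of Lefty2 is uncertain, since it shares sequence with Lefty1, which was lower in PWK/PhJ. Slpi, a secreted inhibitor of leukocyte proteases, was at 4.77, 5.82 and 7.51 CPM in PWK/PhJ and 0, 0.450 and 1.43 CPM in the other strains, again without overlap (log2 3.82, SE 0.13, edgeR adjusted p = 7.19e-33). Within PWK/PhJ, the 4 males were all above the 4 females for Slpi, but that difference did not pass the test of sex.

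Calcrl, the receptor subunit shared by calcitonin gene-related peptide and adrenomedullin, was at 17.5, 22.8 and 26.4 CPM in PWK/PhJ, against 4.58, 8.10 and 11.3 CPM in the other strains. Every PWK/PhJ library was above every other library, and no other strain's mean was above 8.71 CPM. On the log2 scale this was 1.49 higher than the mean (SE 0.05, edgeR adjusted p = 4.42e-31). The adhesion G protein-coupled receptor genes Adgrg2 (log2 2.06, SE 0.08) and Adgrd1 (1.77, SE 0.16) also lay above all other libraries, with PWK/PhJ ranges of 4.41 to 6.52 and 5.06 to 8.43 CPM and ranges of 0.341 to 2.14 and 0.639 to 3.90 CPM in the other strains (edgeR adjusted p = 9.14e-30 and 9.06e-14).

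Unc93b1, which carries nucleic acid-sensing Toll-like receptors to endosomes, was at 28.3, 31.2 and 33.5 CPM in PWK/PhJ and 6.58, 10.7 and 14 CPM in the other strains. The difference was 1.62 on the log2 scale (SE 0.04, edgeR adjusted p = 5.49e-38), and 1.32 against NOD/ShiLtJ, the nearest strain. P4ha3, a catalytic subunit of collagen prolyl 4-hydroxylase, was at 20.3, 21.4 and 23.4 CPM in PWK/PhJ, against 1.92, 3.97 and 9.96 CPM in the other strains (log2 2.46, SE 0.06, edgeR adjusted p = 2.11e-39). Neither gene overlapped between the groups. For P4ha3, CAST/EiJ was nearest, with a mean of 7.52 CPM.

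Chmp4c, Lpcat2b and Acaa1b were also higher than in every other strain, with Lpcat2b and Acaa1b ahead of Lefty2 in the difference from the nearest strain. Chmp4c, a subunit of the ESCRT-III complex that severs membrane necks, was at 5.63, 7.10 and 7.91 CPM in PWK/PhJ and 0.382, 0.730 and 1.72 CPM elsewhere (log2 3.21, SE 0.09, edgeR adjusted p = 1.5e-37). Lpcat2b, of the lysophosphatidylcholine acyltransferase family, was at 4.41, 5.38 and 7.27 CPM in PWK/PhJ, against 0, 0 and 0.135 CPM in the other strains. It was thus present in each PWK/PhJ library, with 86 to 149 counts, while 29 of the 56 other libraries had none and no other library had more than 3. The fitted log2 difference of 7.57 (SE 0.19, edgeR adjusted p = 2.66e-36) rests on only 38 counts outside PWK/PhJ and depends on the prior count. The SE was derived from that difference and is uncertain too. Lpcat2b passed the low-count filter only through the PWK/PhJ libraries. Its call and its lack of overlap are therefore largely set by the filter. Acaa1b, a peroxisomal thiolase of fatty acid oxidation, was at 3.99 to 6.27 CPM in PWK/PhJ and 0 to 0.639 CPM in the other strains (log2 4.08, SE 0.14, edgeR adjusted p = 2.01e-32). It is uncertain, since 40.0% of its 31-base stretches also occur in its paralog Acaa1a.

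Tmem114, a transmembrane protein gene, was at 15.3 to 20.4 CPM in PWK/PhJ and varied among the other strains, with 0.135 to 8.40 CPM (log2 2.61, SE 0.10, edgeR adjusted p = 6.68e-31). Its strain means outside PWK/PhJ ran from 0.440 CPM in WSB/EiJ to 5.90 CPM in A/J. At higher levels, Erich3, a glutamate-rich protein gene, was at 38.9 to 46.5 CPM in PWK/PhJ and 12.3 to 23.4 CPM in the other strains (log2 1.16, SE 0.06, edgeR adjusted p = 1.34e-22). Rint1, of the machinery that tethers vesicles between Golgi and endoplasmic reticulum, was at 35.1 to 39.8 CPM in PWK/PhJ and 6.63 to 17.6 CPM in the other strains (log2 1.42, SE 0.04, edgeR adjusted p = 7.93e-36). Both stood apart without overlap.

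**Figure D2:**
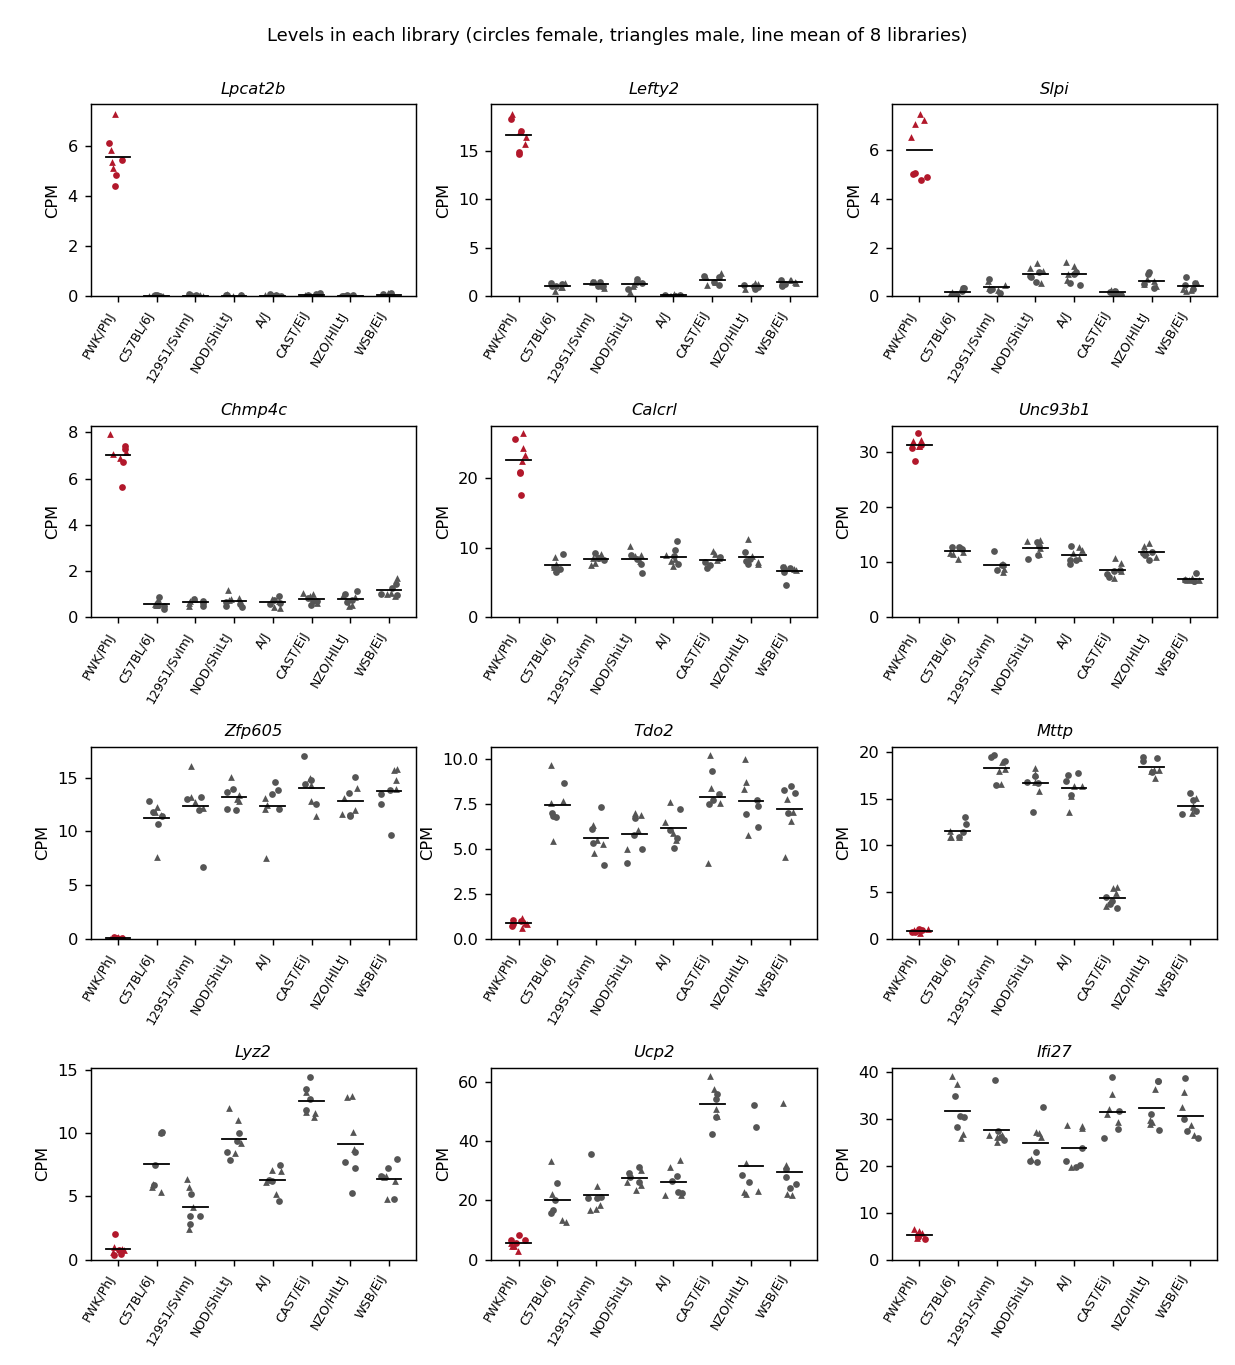
Level in CPM of 6 genes higher and 6 genes lower in PWK/PhJ, in each library, by strain with PWK/PhJ in red at the left. Circles are females, triangles males and lines means of 8 libraries; in every panel the 8 PWK/PhJ libraries lie on the same side of all 56 others, with CAST/EiJ next to them for Mttp.

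Mttp and Tdo2 were among the genes lower in PWK/PhJ than in every other strain. Mttp, which loads lipid onto apolipoprotein B and CD1 molecules, was at 0.613, 0.890 and 1.02 CPM in PWK/PhJ, against 3.25, 15.7 and 19.6 CPM in the other strains. The groups did not overlap, but CAST/EiJ, with a mean of 4.34 CPM, lay between PWK/PhJ and the remaining 6 strains. Against the mean of the 7 strains Mttp fell by 3.93 on the log2 scale (SE 0.08), and against CAST/EiJ by 2.34. Tdo2, the tryptophan dioxygenase that opens the kynurenine pathway and a marker of mature granule neurons, was at 0.601, 0.842 and 1.12 CPM in PWK/PhJ and 4.10, 6.94 and 10.2 CPM in the other strains (log2 -2.95, SE 0.14, edgeR adjusted p = 1.20e-25). No other strain had a mean under 5.60 CPM.

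Ucp2, a carrier of the inner mitochondrial membrane, was at 3.01, 5.57 and 8.45 CPM in PWK/PhJ, against 12.9, 26.2 and 61.9 CPM in the other strains. Its means elsewhere spread widely, up to 52.6 CPM in CAST/EiJ, and still no library fell into the PWK/PhJ range. Ucp2 thus fell by 2.37 on the log2 scale (SE 0.17, edgeR adjusted p = 8.04e-18). It also varied within strains. In WSB/EiJ it was at 52.9 CPM in male 1 and 21.9 CPM in male 3, whose choroid plexus markers summed to 5033 and 80.3 CPM. In CAST/EiJ it was at 56.1 CPM in female 4 and 57.8 CPM in male 4, with sums of 4970 and 92.1 CPM. Its call was kept with the choroid plexus covariate described below. Tmem126b, an assembly factor of respiratory complex I, was at 9.41, 10.8 and 11.9 CPM in PWK/PhJ and 23.8, 32.7 and 40.4 CPM in the other strains (log2 -1.58, SE 0.04, edgeR adjusted p = 9.13e-37). The groups did not overlap, and the nearest mean was 28.2 CPM in CAST/EiJ.

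Lyz2, Irgm1 and Lag3 were lower as well. Lyz2, the lysozyme of macrophages and microglia, was at 0.338, 0.772 and 2.04 CPM in PWK/PhJ, against 2.38, 7.37 and 14.5 CPM in the other strains (log2 -3.12, SE 0.18, edgeR adjusted p = 1.54e-21). It shares 32.8% of its 31-base stretches with Lyz1 and is uncertain. Irgm1, an interferon-gamma-inducible GTPase that acts on pathogen vacuoles and autophagy, was at 0.789, 1.06 and 1.74 CPM in PWK/PhJ and 3.21, 6.68 and 10.7 CPM in the other strains. It fell by 2.47 on the log2 scale (SE 0.09, edgeR adjusted p = 5.12e-32), with no overlap. Lag3, an inhibitory receptor known from T cells and also found on neurons, was at 0.0916 to 0.318 CPM in PWK/PhJ and 0.383 to 9.11 CPM in the other strains (log2 -4.21, SE 0.19). CAST/EiJ was again nearest, with a mean of 0.639 CPM.

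Npffr1, Glra3, Grem1 and Plcxd1 were also lower than in every other strain. Npffr1, a receptor of RFamide neuropeptides, was at 0.809, 1.14 and 1.74 CPM in PWK/PhJ, against 2.20, 5.72 and 10.6 CPM in the other strains (log2 -2.27, SE 0.19, edgeR adjusted p = 1.07e-15). Glra3, the alpha-3 subunit of the glycine receptor, was at 0.562, 0.763 and 3.16 CPM in PWK/PhJ and 1.87, 5.36 and 10.4 CPM in the other strains, so the groups overlapped slightly (log2 -2.20, SE 0.16, edgeR adjusted p = 2.28e-17). Grem1, a secreted antagonist of bone morphogenetic proteins, was at 1.66 to 2.79 CPM in PWK/PhJ and 4.56 to 23.9 CPM in the other strains, with the highest mean, 18.3 CPM, in CAST/EiJ (log2 -1.96, SE 0.11, edgeR adjusted p = 1.39e-23). Plcxd1, of the phospholipase C X-domain family, was at 1.74 to 3.25 CPM in PWK/PhJ and 6.17 to 9.72 CPM in the other strains (log2 -1.68, SE 0.07). It is uncertain, with 25.2% of its stretches also in Gtpbp6.

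Padi2, Nfyb and Thyn1, at moderate levels, and Erh were also lower. Padi2, the main brain enzyme that turns arginine in proteins into citrulline, was at 15.3, 16.3 and 19.7 CPM in PWK/PhJ, against 35.9, 57.6 and 102 CPM in the other strains (log2 -1.82, SE 0.06, edgeR adjusted p = 5.31e-34). Nfyb, a subunit of the CCAAT-binding factor NF-Y, was at 21 to 25.3 CPM in PWK/PhJ and 39.7 to 63.4 CPM elsewhere (log2 -1.11, SE 0.05, edgeR adjusted p = 5.55e-29). Thyn1, a thymocyte nuclear protein gene, was at 13.1 to 16.2 CPM in PWK/PhJ and 34.7 to 54.2 CPM in the other strains (log2 -1.44, SE 0.05). None of the 3 overlapped. Erh, a small nuclear protein involved in RNA processing, was at 4 to 5.22 CPM in PWK/PhJ and 10.2 to 19.1 CPM in the other strains (log2 -1.70, SE 0.08), but 25.6% of its stretches also occur in Gm10131, so its level is uncertain.

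Genes matching the name patterns of clustered or copied families made up 50.5% of the genes apart from every strain and 18.4% of those tested. Zfp605, of the KRAB zinc finger family, was nearly absent from PWK/PhJ, with 0, 0.0515 and 0.157 CPM, against 6.63, 12.9 and 17 CPM in the other strains. The 8 PWK/PhJ libraries held 10 counts of it in all, and 2 held none, whereas each of the 56 other libraries held 141 or more. Its fitted fold depends on the prior count (edgeR adjusted p = 5.33e-37), and 5.81% of its stretches occur in another gene. Olfr975, an odorant receptor gene, was at 4.85 to 6.81 CPM in PWK/PhJ and 0 to 0.813 CPM in the other strains (log2 4.26, SE 0.13). Gm14434 was at 17.6 to 38 CPM in PWK/PhJ and 0 to 9.10 CPM in the other strains, and all of its stretches occur in other genes. These levels are uncertain.

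By chromosome and gene class, the shares called differed. On chromosome 14, 55 of 669 tested genes were higher in PWK/PhJ than the mean of the other strains (8.22%), beside 3.75% of all genes, and 47 of the 55 matched a family pattern. Genes with at least 10% of their 31-base stretches in another gene were called higher in 7.16% of cases, against 2.63% of genes with less shared sequence, and lower in 7.46%, against 4.96%. Level also moved with the calls: under 1 CPM, 13.5% of genes were called higher and 17.2% lower, and at 100 CPM or more, 0.176% were called higher and 0.351% lower. Long non-coding genes were higher in 9.66% and lower in 17.9% of cases, against 3.01% and 4.07% of protein-coding genes. A gene of low mean level can pass the low-count filter through only a few libraries in which it is higher. How much level, the filter or shared sequence contributes to these shares was not tested.

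For several close copies, PWK/PhJ had more counts on a gene and fewer on its copy, while the summed level was near that of the other strains. A search made after the values had been seen found 19 pairs in which a higher and a lower gene shared at least 10% of 31-base stretches. The summed level of 15 pairs differed by less than 2-fold from the other strains, and that of 10 pairs by less than 0.5 on the log2 scale. The change of a sum lies between the changes of its members by construction, so these counts are a description. Nutf2 was at 22.9, 24.5 and 27.2 CPM in PWK/PhJ, against 0.389, 2.91 and 6.89 CPM in the other strains. Nutf2-ps1, identical to it in coding sequence, was at 0, 1.18 and 2.27 CPM in PWK/PhJ and 19.4, 24.3 and 34.8 CPM in the other strains. Neither overlapped, yet their sum averaged 26.2 ± 1.28 CPM in PWK/PhJ (SD, n = 8) and 27.3 ± 2.52 CPM in the other strains (SD, n = 56), a log2 ratio of -0.06. Which copy the reads came from was not tested.

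The same was seen for Pam16 and Gm9803. Pam16 was at 13.5, 15.1 and 15.5 CPM in PWK/PhJ and 1.92, 5.31 and 9.17 CPM in the other strains, while Gm9803 was at 0, 0.410 and 1.29 CPM in PWK/PhJ and 8.10, 12.2 and 21.2 CPM in the other strains. Summed, they averaged 15.4 ± 0.866 CPM in PWK/PhJ and 17.5 ± 2.47 CPM elsewhere (SD, n = 8 and 56). AK157302 was at 121, 124 and 130 CPM in PWK/PhJ, while its level in the other strains depended on CAST/EiJ. It averaged 84.5 CPM in that strain and 0.234 to 0.394 CPM in the remaining 6. Isca1 mirrored it, with 35.5, 37.2 and 38.2 CPM in PWK/PhJ, a mean of 99.1 CPM in CAST/EiJ and 167 to 197 CPM in the remaining 6 strains. Together, AK157302 and Isca1 averaged 162 ± 2.62 CPM in PWK/PhJ and 179 ± 12.9 CPM in the other strains (log2 -0.15).

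Hba-a1, at 59.6, 74.2 and 91.8 CPM in PWK/PhJ, was at 0, 1.10 and 31.2 CPM in the other strains. Hba-a2 was at 20.6, 26 and 31 CPM in PWK/PhJ and at 25.5, 67.3 and 164 CPM in the other strains, which overlapped. The alpha-globin sum averaged 102 ± 12.8 CPM in PWK/PhJ and 79.6 ± 26.9 CPM in the other strains (SD, n = 8 and 56). Single PWK/PhJ libraries, at 88.7 to 118 CPM, lay within the range of the other libraries, 31.4 to 165 CPM. Ahcy and Gm4737 summed to 37.2 CPM in PWK/PhJ and 38.7 CPM in the other strains, Hmga1b and Hmga1 to 44.4 CPM in PWK/PhJ and 48.9 CPM in the other strains, and Cox5b and Gm11273 to 145 CPM in PWK/PhJ and 144 CPM in the other strains. In these 3 pairs PWK/PhJ was not alone, since the higher member was at a like level in at least 1 other strain.

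Lefty2 and Lefty1, whose coding sequences differ the most of the pairs shown, had another pattern. Lefty1 was at 0, 0.0300 and 1.04 CPM in PWK/PhJ, against 0, 8.03 and 18.4 CPM in the other strains. It was low in A/J and NZO/HlLtJ too, with means of 0.0622 and 0.0511 CPM, and high in WSB/EiJ at 14.9 CPM. Their sum averaged 16.8 ± 1.39 CPM in PWK/PhJ and 8.21 ± 6.01 CPM in the other strains, with strain means from 0.157 CPM in A/J to 16.4 CPM in WSB/EiJ. Lefty2 was the more abundant of the pair in PWK/PhJ, and at far lower levels in A/J, with 0.0943 CPM of Lefty2, and NZO/HlLtJ, with 1.07 CPM. Which copy the reads came from was not tested for this pair either.

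**Figure D3:**
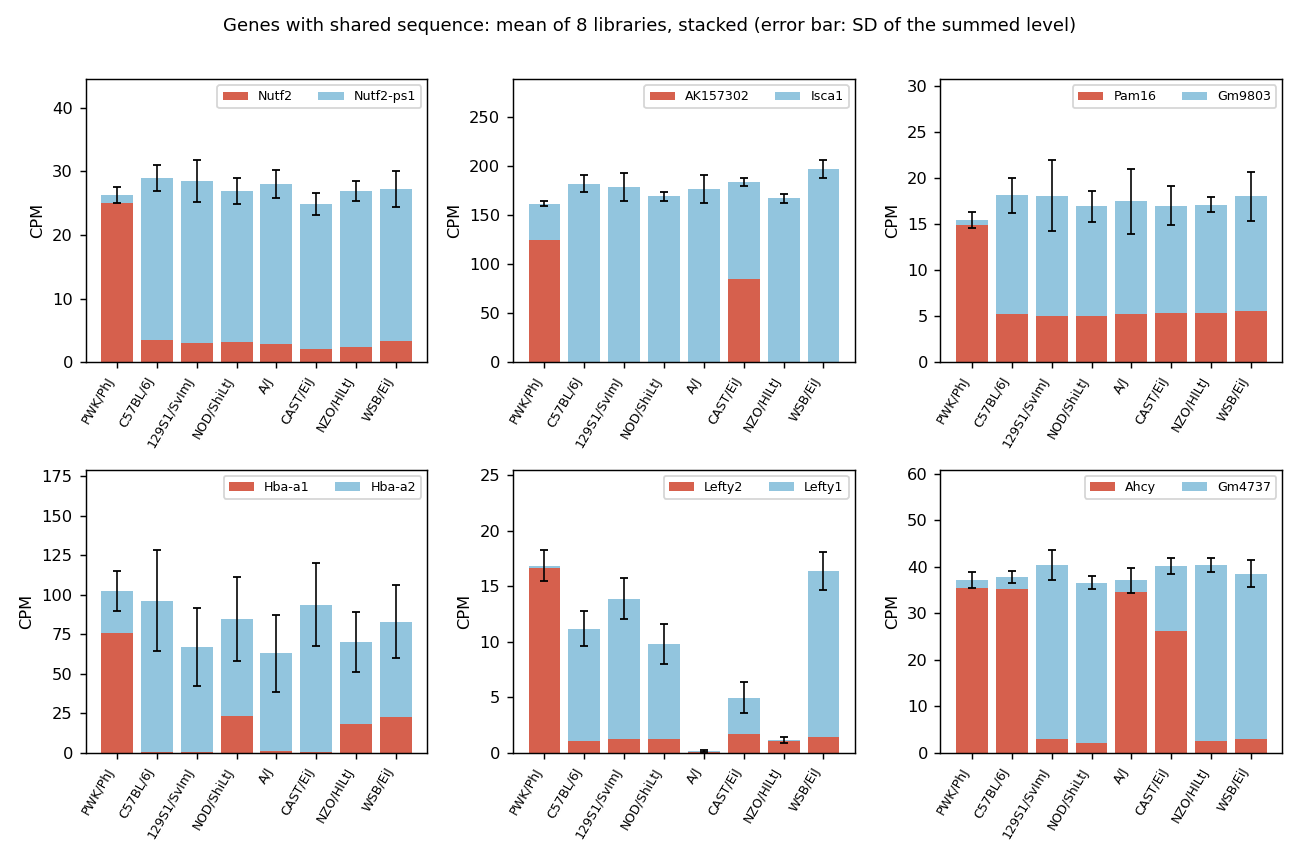
Mean levels in CPM of 6 gene pairs in each strain, stacked, with the gene higher in PWK/PhJ in red and the gene lower in PWK/PhJ in blue; error bars are SDs of the summed level over 8 libraries. In PWK/PhJ nearly all of the Nutf2 pair's 26.2 CPM was counted on Nutf2, while the sum was 24.9 to 28.9 CPM in the other strains.

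Gene lists for cell types and pathways were read against the background of all genes, of which 28.9% were higher and 28.8% lower in PWK/PhJ at an edgeR adjusted p under 0.05 with any fold (57.7% in either direction), with a median log2 fold change of -0.00284. All 16 oligodendrocyte and myelin genes fell, by less than 2-fold each. Their median log2 fold change was -0.40, from -0.74 for Aspa, the enzyme that splits N-acetylaspartate, to -0.18 for Ermn. Mbp, a main protein of compact myelin, was at 1142, 1319 and 1399 CPM in PWK/PhJ and 1259, 1754 and 2746 CPM in the other strains (log2 -0.49, SE 0.06, edgeR adjusted p = 1.39e-09). The ranges overlapped. Of 12 genes of oligodendrocyte precursors, 4 fell and 2 rose at any fold.

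Against single strains the myelin difference was uneven. All 16 genes were lower in PWK/PhJ than in C57BL/6J and in NOD/ShiLtJ, with medians of -0.66 and -0.71. Lower genes numbered 14 against A/J, 13 against 129S1/SvImJ, 10 against NZO/HlLtJ and 9 against WSB/EiJ. Against CAST/EiJ 3 were lower, with a median of -0.04. In bulk tissue, fewer oligodendrocytes and less RNA per cell cannot be told apart.

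Of the 13 protein genes of the mitochondrial genome, 12 fell at any fold, 4 of them by at least 2-fold, and the median was -0.64. mt-Nd6, which is encoded on the strand opposite to the other protein genes, was at 272, 299 and 336 CPM in PWK/PhJ and 484, 666 and 1057 CPM in the other strains. It did not overlap (log2 -1.22, SE 0.07, edgeR adjusted p = 3.24e-21), nor did mt-Nd2, another subunit gene of complex I (log2 -1.02). mt-Nd1, of the same complex, was at 1346, 1604 and 1686 CPM in PWK/PhJ and 1336, 3638 and 5885 CPM in the other strains (log2 -1.13, SE 0.06), and CAST/EiJ, at a mean of 1492 CPM, was nearest. Against CAST/EiJ 5 of the 13 were lower and 1 was higher at any fold, with a median of -0.11. mt-Atp8 did not pass the test (log2 -0.03). The mitochondrial genome took 3.46 to 3.99% of counts in PWK/PhJ libraries and 3.74 to 8.42% in the others. Among 40 nuclear genes of oxidative phosphorylation, 1 was called higher, the uncertain Cox5b, and their median was 0.03.

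**Figure D4:**
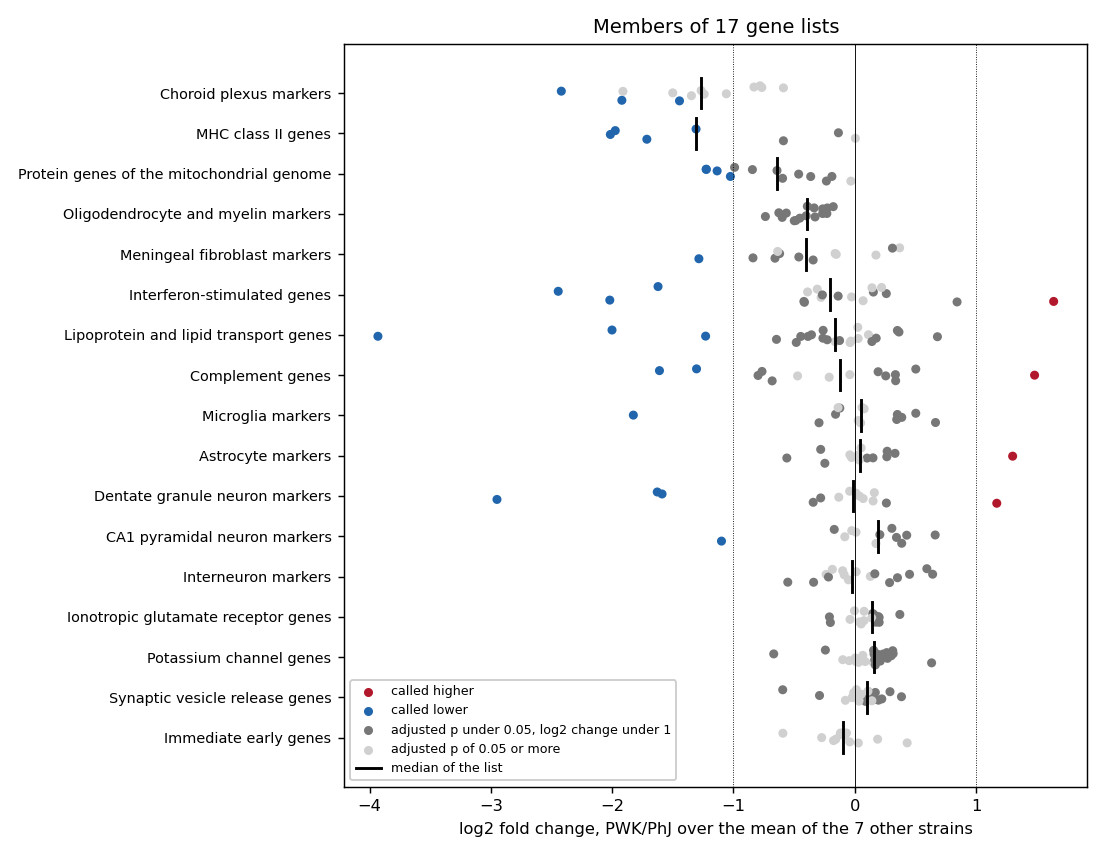
log2 fold change of PWK/PhJ over the mean of the 7 other strains (horizontal axis) for the tested members of 17 gene lists, with the list median as a black bar and dotted lines at a 2-fold change. The 16 myelin genes lie between -0.74 and -0.18, and synaptic and ion channel lists lie around 0.

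Major histocompatibility genes of class II, which present peptides on microglia and macrophages, were at low levels. Of 7 tested, 4 were called lower (H2-Ab1, H2-Aa, Cd74 and H2-Eb1), and the median was -1.31. Against single strains the difference was uneven, with medians from -2.51 against NZO/HlLtJ to -0.28 against WSB/EiJ. At any fold, 5 were lower against C57BL/6J, NOD/ShiLtJ and NZO/HlLtJ, 4 against 129S1/SvImJ and WSB/EiJ, and 3 against A/J and CAST/EiJ. Against each of 129S1/SvImJ, CAST/EiJ and WSB/EiJ, 1 was higher. H2-Ab1, the beta chain of the I-A molecule, was at 0.0519, 0.304 and 0.681 CPM in PWK/PhJ and 0.335, 1.17 and 5.53 CPM in the other strains, so ranges overlapped (log2 -2.01, SE 0.30, edgeR adjusted p = 8.04e-08). It was lower than in each of the 7 strains. Ciita, the transcriptional activator of the class, did not pass the test (log2 0.01). The class I gene H2-Q7 was called lower on 16 counts in the 8 PWK/PhJ libraries, and 39.2% of its stretches occur in other genes. Among 14 microglia genes, 5 rose and 4 fell at any fold; the highest was Tyrobp, a signalling adaptor, with a log2 fold change of 0.67, and the lowest was Fcrls, a microglial Fc receptor-like gene (log2 -1.83), whose level in WSB/EiJ was close to that in PWK/PhJ.

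Of 18 interferon-stimulated genes, Ifit2 was called higher and Ifi27, Ifit3 and Rsad2 lower (list median -0.20). Ifit2, an RNA-binding antiviral protein, was at 20.1, 21.3 and 25.2 CPM in PWK/PhJ, against 4.77, 7.21 and 10.3 CPM in the other strains. Ifi27, a small interferon-induced membrane protein, was at 4.36, 5.22 and 6.49 CPM in PWK/PhJ, against 19.9, 28.2 and 39.2 CPM in the other strains. Neither overlapped, and both differed from each of the 7 strains, in opposite directions (log2 1.64, SE 0.06, edgeR adjusted p = 2.07e-31 for Ifit2 and log2 -2.44, SE 0.10, edgeR adjusted p = 4.52e-28 for Ifi27). Ifit3, which lies beside Ifit2 in the genome and shares 61.8% of its stretches with Ifit3b, was at 0.601 to 1.43 CPM in PWK/PhJ and 1.31 to 13 CPM in the other strains. Of 14 complement genes, C4a was called higher and C3 and Cd59a lower; C4a shares 43.3% of its stretches with C4b.

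Calls of at least 2-fold were rare among well-expressed genes in general, with 0.432% higher and 0.774% lower at 20 to 100 CPM, so lists of such genes can hold 0 calls without standing apart. No gene was called among GABA-A receptors (14 genes, median 0.10), ionotropic glutamate receptors (17, median 0.14), potassium channels (26, median 0.16), synaptic vesicle release (21, median 0.10), interneuron markers (16, median -0.02) and immediate early genes (12, median -0.10). At any fold, 14 potassium channel genes rose and 2 fell, and no immediate early gene passed the test. Circadian clock, glucocorticoid response, cholesterol synthesis and cytosolic ribosomal protein lists also held no 2-fold change. Single genes stood out against these medians. Penk, the precursor of enkephalins, was at 76.9, 81.9 and 89.3 CPM in PWK/PhJ, against 11.8, 25.2 and 64.7 CPM in the other strains (log2 1.67, SE 0.08, edgeR adjusted p = 1.04e-25). All 8 libraries were above all others, 10.9% of its stretches occur in A830012C17Rik, and CAST/EiJ was nearest with a mean of 48.5 CPM, under a 2-fold difference.

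Penk also marks the striatum, and none of the 9 other striatal markers changed by 2-fold. At any fold Tac1 (log2 0.31) and Pde10a (0.24) rose and Rgs9 (-0.73) and Ppp1r1b (-0.60) fell, and the others did not pass the test, with log2 values from -0.57 for Isl1 to 0.05 for Drd2. S100b, a calcium-binding protein of astrocytes, was at 229, 244 and 272 CPM in PWK/PhJ and 67.7, 96.2 and 150 CPM in the other strains, without overlap (log2 1.30, SE 0.05, edgeR adjusted p = 9.61e-31), while the 14 astrocyte markers had a median of 0.04. In the dentate granule list of 14, Tdo2, Npnt and Dsp were called lower and Lct higher. Npnt, an extracellular matrix protein, was at 5.33 to 8.89 CPM in PWK/PhJ, against strain means from 3.12 CPM in CAST/EiJ to 38.2 CPM in A/J. Dsp, the desmosomal plaque protein, was at 8.70 to 14.5 CPM in PWK/PhJ, with CAST/EiJ lower still at a mean of 2.65 CPM and the remaining strains at 39.8 CPM or more.

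The calls in further lists are given beside the 9.35% of all genes called in either direction. Among 9 lymphocyte and immune checkpoint genes, 1 was called higher and 1 lower (list median -0.09). Of 12 CA1 markers, Iyd was called lower and the median was 0.19, and of 15 CA2 and CA3 markers, Iyd and Prss23 were called lower and the median was -0.15. Prss23, a serine protease, was at 2.94, 3.49 and 5.59 CPM in PWK/PhJ and 4.79, 16.4 and 29.6 CPM in the other strains, with CAST/EiJ close to PWK/PhJ at a mean of 5.64 CPM. Among 12 markers of adult neurogenesis, Draxin, an axon guidance protein, was called lower (list median -0.25). Ly6c1, an endothelial surface protein gene, was called higher only through WSB/EiJ, with 18.5 to 28.1 CPM in PWK/PhJ, a mean of 0.103 CPM in WSB/EiJ and means of 17.8 to 29.8 CPM in the remaining 6 strains. Leaving out any of 3 single PWK/PhJ libraries took Ly6c1 under the 2-fold minimum (log2 0.95 to 0.99). The other 15 endothelial and mural markers held no 2-fold change.

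In the neuropeptide list of 16, Penk and Trh were called higher and Cort lower. Trh, the precursor of thyrotropin-releasing hormone, was at 0.766, 1.58 and 2.41 CPM in PWK/PhJ and 0, 0.308 and 12.8 CPM in the other strains, where CAST/EiJ had a higher mean, 6.22 CPM. Of 23 lipoprotein and lipid transport genes, Mttp, Apod and Lipc were called lower, and 12 fell and 5 rose at any fold (median -0.16). Apod, a lipid carrier made by glia, was at 29.8, 36.9 and 54.3 CPM in PWK/PhJ and 52.5, 87.2 and 350 CPM in the other strains (log2 -1.23, SE 0.16, edgeR adjusted p = 2.06e-09), with a slight overlap. Of 33 genes of the TGF-beta family, 10 rose and 11 fell at any fold, Lefty2 was called higher and Lefty1 and Gdf1 lower, and the median was -0.01. Gdf1 was at 0 to 3.79 CPM in PWK/PhJ and 0 to 25.3 CPM in the other strains, and leaving out any of 4 single PWK/PhJ libraries ended its call (edgeR adjusted p = 0.0521 to 0.0575). It is uncertain, since all of its stretches also occur in Cers1. Gstm7, a glutathione transferase and the single call among 21 detoxification genes, was at 77.0 to 83.5 CPM in PWK/PhJ, with means of 163 CPM in CAST/EiJ and 88.9 CPM in NZO/HlLtJ and 20.9 to 27.4 CPM in the remaining 5 strains.

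Markers of neighbouring tissue were checked because a dissected hippocampus can carry it. Among 10 ependymal markers 1 was called lower (list median -0.24), and among 10 neocortex markers 1 was called higher (list median 0.01). Among 12 meningeal markers 1 was called lower, and 6 fell and 1 rose at any fold (list median -0.40). The 10 tested thalamus and habenula markers held 0 calls (list median -0.24). Choroid plexus markers, of the epithelium that secretes cerebrospinal fluid, summed to 24.0, 107 and 1907 CPM in PWK/PhJ and 36.1, 588 and 5033 CPM in the other strains, and Ttr, the most abundant of them, was above 0 in every PWK/PhJ library, at 11.4 to 1704 CPM. In PWK/PhJ 2 of 8 libraries exceeded 300 CPM, a limit set after the values were seen, and in the other strains 3 to 6 of 8. Kl, which encodes the co-receptor Klotho, was at 2.78, 4.64 and 47.3 CPM in PWK/PhJ and 5.14, 36.0 and 178 CPM in the other strains (log2 -1.92, SE 0.50, edgeR adjusted p = 0.000993). Of the 13 markers, 3 were called lower in PWK/PhJ (Kl, Kcne2 and Tmem72), with a median of -1.27. Leaving out any of 6 single PWK/PhJ libraries ended the call of Kcne2 (edgeR adjusted p = 0.0670 to 0.0756), and any of 5 ended that of Tmem72 (edgeR adjusted p = 0.0546 to 0.0614). Leaving out the PWK/PhJ libraries richest in these markers, female 2 and male 4, gave 12 of 13 called lower, a shift that follows from the choice of those libraries. A choroid plexus score, the mean log2 level of these 13 markers, was also used as a covariate. Kcne2 and Tmem72 are part of that score, so their differences shrink in part by construction. With the covariate both lost their calls by the 2-fold minimum and stayed lower. Kcne2 was at log2 -0.76 (edgeR adjusted p = 0.00162) and Tmem72 at log2 -0.64 (edgeR adjusted p = 0.00204). Igf2, a growth factor of meninges and choroid plexus, was at 14.5, 22 and 107 CPM in PWK/PhJ and 23.1, 86.7 and 270 CPM in the other strains (log2 -1.28, SE 0.39, edgeR adjusted p = 0.00395). With the covariate it also fell under the 2-fold minimum and stayed lower (log2 -0.82, edgeR adjusted p = 0.000223). It is uncertain, since 61.7% of its stretches also occur in Gm49394. How much the choroid plexus share contributes to the calls of other genes was not tested beyond these fits.

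**Figure D5:**
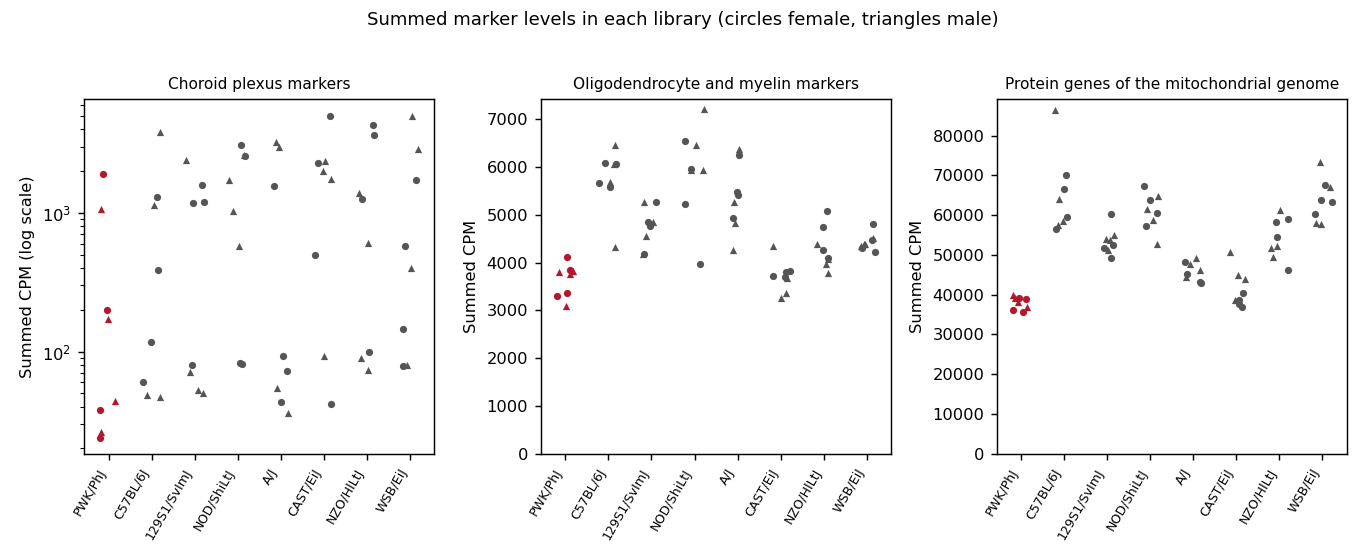
Summed level in CPM of choroid plexus markers (left, log scale), oligodendrocyte and myelin markers (middle) and protein genes of the mitochondrial genome (right) in each library, by strain with PWK/PhJ in red at the left. Choroid plexus levels were split between libraries in every strain, while PWK/PhJ was at the low end for both other sums, beside CAST/EiJ.

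The strain comparison was repeated within each sex. In females 650 genes (3.74%) were higher and 895 (5.15%) lower in PWK/PhJ than in the mean of the other strains, and in males 655 (3.77%) and 1007 (5.79%). Both sexes called 529 genes higher and 722 lower, and 1 gene went in opposite directions. Of the genes apart from every other strain, all 157 higher and 233 of the 235 lower had a change of at least 2-fold in both sexes. Within PWK/PhJ, 10 genes (0.0575%) differed between females and males at an edgeR adjusted p under 0.05, 4 of them higher in females (0.023%) and 6 higher in males (0.0345%). All but 1 of the 10 lie on the X or Y chromosome, and 707 genes (4.07%) differed at an unadjusted p under 0.05. Kdm5c, an X-linked histone demethylase that escapes X inactivation, was at 61.5, 69.8 and 72.4 CPM in PWK/PhJ females and 45.6, 47.5 and 50.4 CPM in PWK/PhJ males (log2 0.52, edgeR adjusted p = 0.00734).

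The autosomal gene among the 10 was Ccnk, the cyclin partner of the RNA polymerase II kinases CDK12 and CDK13. It was at 20.4, 21.6, 22.1 and 22.7 CPM in PWK/PhJ females and 17.8, 18.1, 18.3 and 18.6 CPM in PWK/PhJ males. The groups did not overlap, but the difference was small (log2 0.25, edgeR adjusted p = 0.0474). With edgeR 0 genes (0%) passed the test of a sex difference in PWK/PhJ unlike that of the other strains, and 553 (3.18%) did at an unadjusted p under 0.05. DESeq2 called 3 genes (Gm27000, Gm42846 and Gm49701), named after their values were seen. Glra3 was at 0.676, 3.16, 0.726 and 1.86 CPM in PWK/PhJ females, with female 2 highest, and 0.562 to 0.809 CPM in PWK/PhJ males (edgeR log2 difference 1.32, unadjusted p = 0.00021). Emilin2, an extracellular matrix glycoprotein gene, was at 0.620 to 1.5 CPM in PWK/PhJ females and 0.204 to 0.721 CPM in PWK/PhJ males, and was lower than in all 7 other strains in the sexes combined (log2 -2.10, SE 0.14).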

How the data were processed

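The deposited table held raw counts per gene for 32227 Ensembl gene identifiers in 64 hippocampal RNA libraries. Per the labels' protocols, the authors extracted RNA with TRIzol Plus and on-column DNase treatment and made the libraries with a TruSeq kit. Per the submitters' processing notes the genome build was GRCm39, and the name of the table gives Ensembl release 105. The aligner, the counting program, the use of strand and the use of strain-specific genomes are not given in the sources used here. Total counts ran from 16607602 to 27759221 per library, and all 64 columns were mapped to samples by name. The names of 14 columns, none of PWK/PhJ, lack a digit that the sample title holds and were matched by the other parts of the title.

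The low-count filter was filterByExpr (minimum count 10, minimum total 15, 16 groups of strain and sex), and 17382 genes passed it. A model of 16 group means was fitted with edgeR 4.0.16 in R 4.3.3 (TMM scaling, robust quasi-likelihood F test, 48 residual degrees of freedom). PWK/PhJ, as the mean of its female and male groups, was compared with the equally weighted mean of the other strains, with each strain, between sexes and for an interaction. Calls needed a Benjamini-Hochberg adjusted p under 0.05 over all tested genes and an absolute log2 fold change of at least 1, except that the tests of sex had no fold minimum. A gene stood apart from every strain if the largest of its 7 p-values passed after adjustment, with 7 changes of the same sign and at least that size. The SE given with a log2 fold change is its absolute value divided by the square root of the F statistic of the test. It is thus derived from the test and was not fitted separately. DESeq2 1.42.0 was run as an alternative. The model was tested on simulated data first, where 99.0% of 100 genes changed by 1.5 on the log2 scale were recovered in the comparison with the mean. Of 100 genes changed by 1 on the log2 scale, 78% were recovered between the sexes within PWK/PhJ, with 3 false calls, and 77% in the interaction, with 4 false calls. Apart from the changes put in, the simulated strains had equal levels, without choroid plexus differences or shared reads. The recovery in the real data can therefore differ.

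Symbols, gene types and coding sequences came from GENCODE M21, which is on GRCm38, and no coordinates were taken from it. Of the identifiers 99.7% matched, and the 81 others held 0.0382% of counts. Shared sequence is the share of a gene's 31-base stretches found in transcripts of another gene, and pairs shared 10% or more. Coding sequences were aligned with Biopython 1.88, and figures were drawn with matplotlib 3.10.9.

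The genes named were protein-coding with a symbol. They were the 12 higher and 12 lower genes with the largest smallest difference over the 7 strains. These had at least 5 CPM on the higher side. Added to them were the higher and lower genes of highest mean CPM among those apart from every strain. Up to 3 called members of each of 42 gene lists and genes of the sex tests were also named. So were the leading members of copied families, matched by 59 name patterns. Other genes were chosen after their values were seen: Wfs1, Prox1, single list members given for context, the members of the copy pairs, Slpi by sex, and Kdm5c. The members and the gene lists were chosen with earlier results of these data known. Alternatives were other size factors, filters, fold minimums, DESeq2, a choroid plexus covariate, scaling without the mitochondrial genome, other sets of strains and leaving out each PWK/PhJ library.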

Additional observations from a re-analysis of the deposited data

Results flagged for a closer look

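Within the 4 PWK/PhJ females or the 4 PWK/PhJ males, 19 of 156 groups of values for the named genes held a library far from the other 3 by Dixon's test at its 95% critical value, where chance gives about 5% of groups. Female 2 and male 4, the libraries rich in choroid plexus transcripts, held most of the high values. Kl was at 47.3 CPM in female 2 and 28.9 CPM in male 4, against 2.78 to 7.22 CPM in the other 6. Tmem72 was at 28.5 CPM in female 2 and 16 CPM in male 4, and Kcne2 at 2.84 and 2.34 CPM. Igf2 was at 66.6 CPM in male 4, against 15.7 to 22.1 CPM in the other males. Female 2 was also high for Npffr1 (1.74 CPM), Lipc (0.137 CPM), mt-Nd6 (315 CPM) and Cox5b (115 CPM), and male 4 was low for Erich3 (38.9 CPM, against 43.6 to 44.5 CPM).

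Female 4 was high for H2-Aa (0.681 CPM) and for Lefty1 (1.04 CPM, against 0 to 0.156 CPM in the other females) and low for Dsp (12.5 CPM, against 14.2 to 14.5 CPM). Lefty1 was also at 0.540 CPM in male 1, against 0 to 0.0601 CPM in the other males. Pam16 was low in female 3, at 13.5 CPM against 15.4 to 15.5 CPM. Male 2 was high for Fcrls, at 2.43 CPM, and male 3 for Rspo1, an activator of Wnt signalling, at 8.23 CPM.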

How the results depend on the processing

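Against the mean, counts moved with the filter (1586 higher without it; 159 higher and 297 lower at a mean of 50 counts) and the fold minimum (5029 and 5001 without it; 224 and 331 at log2 of 2). Genes apart from every strain were 30 higher and 81 lower at a mean of 50 counts, 1823 in either direction (872 of them higher) without the fold minimum, 57 and 85 at log2 of 2, 241 and 452 without CAST/EiJ, and 279 and 558 against the 5 classical strains, where fewer strains had to be passed. Without the filter the pairwise calls were 2988 (C57BL/6J), 2888 (129S1/SvImJ), 3115 (NOD/ShiLtJ), 3028 (A/J), 3002 (CAST/EiJ), 3090 (NZO/HlLtJ) and 3085 (WSB/EiJ). Without the fold minimum they were, for the same strains, 9282, 8838, 9108, 9188, 9160, 9406 and 9505. DESeq2 size factors and DESeq2 itself kept these counts within 1.5 times, as did the choroid plexus covariate and scaling without the mitochondrial genome for the comparison with the mean and the genes apart. For the covariate and for that scaling, the counts of the 7 single-strain comparisons were not tabulated. Leaving out 1 PWK/PhJ library gave 655 to 681 higher and up to 1085 lower, and 156 to 164 and 226 to 248 apart. DESeq2 called 3 genes for the interaction of sex. Of 76 named genes called, 70 kept their call in each of 16 alternatives, or 15 for the 3 genes of the mitochondrial genome. Those that did not were Ly6c1, Kcne2, Tmem72, Igf2, Cd4 and Gdf1, the last with 0 to 3.79 CPM in PWK/PhJ. Against the 5 classical strains, Ly6c1 turned to -0.20 and Ccnk, not called for strain, to 0.016, in a set without WSB/EiJ, where Ly6c1 was lowest; the cause was not tested for Ccnk. No paired analysis was possible because the labels number no replicates and numbers were given in accession order. Depth limits genes of few counts, such as Lpcat2b outside PWK/PhJ and Zfp605 and Lag3 within it, for which the size of the fold is uncertain.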
